A study of Mus musculus with 39 samples.

Results

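The genes described here are the growth hormone receptor Ghr, the interleukin 6 (IL-6) receptor genes Il6ra and Il6st, the STAT factors Stat5a, Stat5b and Stat3 that these receptors use, and the feedback genes Cish, Socs1, Socs2 and Socs3. They were chosen by name, with earlier results of these data known. Counts of members set beside shares of all genes are therefore descriptions and no test of enrichment. The genes were found through their Ensembl identifiers, which gave 10 genes among 45232 identifiers counted, 44585 of them with a symbol. Messenger RNA was sequenced from the epididymal white adipose tissue (eWAT) and the quadriceps muscle of male C57BL/6J mice at 22 weeks of age (the sample labels give the strain as C57BL/6). They were weaned onto chow, and between weeks 6 and 7 of life 1 set received control food (CD, with 10% of its energy as fat) and the other a diet rich in fat (HFD, with 45%). Every mouse then had chow until week 10 and HFD from there on, so that adult HFD feeding is common to all groups. The other factor was feeding: mice were fed, or fasted for 16 h before tissue was taken. Quadriceps has 4 fed and 6 fasted libraries after either juvenile diet, and eWAT has 4 fed libraries after each, 6 fasted after CD and 5 fasted after HFD. The design asks whether a short HFD exposure in juvenile life alters the adult tissue or its response to fasting. Whether libraries of a group are different animals is not stated, and a p-value here refers to the spread between libraries, part of which may be technical.

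Growth hormone binds its receptor as a preformed dimer, the associated kinase JAK2 is activated, and STAT5A and STAT5B are phosphorylated, dimerize and bind DNA. IL-6 binds the IL-6 receptor alpha chain, encoded by Il6ra, and the pair recruits gp130, the shared signalling subunit encoded by Il6st, which acts mainly through STAT3. The genes of the CIS and SOCS proteins are classical STAT targets, and the proteins they encode bind the receptors or JAK kinases and end the signal. In muscle, growth hormone and STAT5 support the local production of insulin-like growth factor 1, and IL-6 is known as a cytokine that working muscle itself releases.

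STAT dimers bind the palindrome TTCNNNGAA, so the starts of the member genes were searched for it, and 2 windows hold it. The windows run from 250 bases before a transcript start to 50 bases from it on, taken from RefSeq on build GRCm38.p6. A total of 12 windows matched 9 members by symbol. The Cish and Socs3 windows are shown, since they are the ones that hold the motif and both feedback genes fell in fasted muscle. The Cish window is chr9:107296409-107296708 on the plus strand, and the Socs3 window is chr11:117969317-117969616 on the minus strand. Capitals mark TTCNNNGAA, whose reverse complement has the same form, so that 1 search covers both strands.
Cish: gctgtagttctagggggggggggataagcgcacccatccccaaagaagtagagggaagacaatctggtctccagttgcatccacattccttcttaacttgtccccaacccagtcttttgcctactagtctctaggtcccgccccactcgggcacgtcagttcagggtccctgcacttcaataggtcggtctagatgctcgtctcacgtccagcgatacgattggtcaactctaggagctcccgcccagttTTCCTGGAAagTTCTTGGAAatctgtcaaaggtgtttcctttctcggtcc
Socs3: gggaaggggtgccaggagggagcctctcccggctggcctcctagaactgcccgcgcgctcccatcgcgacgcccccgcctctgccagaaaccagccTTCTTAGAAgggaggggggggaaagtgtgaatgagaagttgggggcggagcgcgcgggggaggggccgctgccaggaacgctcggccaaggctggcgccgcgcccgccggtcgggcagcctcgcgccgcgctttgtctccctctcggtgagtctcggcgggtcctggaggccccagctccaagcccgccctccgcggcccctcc
The Cish window holds TTCCTGGAA at the start itself and TTCTTGGAA 11 bases further on. The Socs3 window holds TTCTTAGAA from 154 bases before the start. Both starts are those of RefSeq transcripts. The annotation that gives the gene positions below places the outermost start further upstream, at 107296026 for Cish and at 117970047 for Socs3. The distances therefore hold for the RefSeq starts only. Of 32851 RefSeq promoter windows of the same length, 8.3% hold TTCNNNGAA. The FoxO motif GTAAACA, searched on both strands, occurs in 0 of the 12 member windows and in 3.65% of all windows. These matches describe the letters of the windows and no binding was measured.

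All 10 genes are annotated as protein-coding, and positions are those of build GRCm38. Ghr (ENSMUSG00000055737) lies on the minus strand at chr15:3317760-3583492, and Il6ra (ENSMUSG00000027947), also on the minus strand, at chr3:89864059-89913196. Il6st (ENSMUSG00000021756) lies on the plus strand at chr13:112464070-112510086. The 3 STAT genes lie side by side: Stat5b (ENSMUSG00000020919) at chr11:100780731-100850724 on the minus strand, Stat5a (ENSMUSG00000004043) at chr11:100859351-100885169 on the plus strand and Stat3 (ENSMUSG00000004040) at chr11:100885098-100939540 on the minus strand. Socs3 (ENSMUSG00000053113) is on the same chromosome at chr11:117966079-117970047, on the minus strand. Cish (ENSMUSG00000032578) lies at chr9:107296026-107302784 on the plus strand, and Socs1 (ENSMUSG00000038037) at chr16:10782240-10785536 and Socs2 (ENSMUSG00000020027) at chr10:95385362-95417180, both on the minus strand.

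Between 6199586 and 14993394 reads per library were counted in genes. Summed markers of fast muscle fibres lay between 178007 and 275862 CPM (reads per 1000000 reads counted in genes) in quadriceps and reached at most 1977 CPM in eWAT libraries. Adipocyte markers summed to 1128 to 45312.5 CPM in eWAT and 123 to 1063 CPM in quadriceps. Libraries of eWAT stood apart from each other: 13 of 19 had a sum of 22 epididymal markers between 19442.6 and 71400.1 CPM, the other 6 between 8.78 and 51.8 CPM, and quadriceps at most 1.45 CPM, with 11 of the 22 genes at 0 in every quadriceps library. The spread between libraries, as edgeR's common coefficient of biological variation, was 0.203 in quadriceps and 0.779 in eWAT. In quadriceps, CD fed replicate 3 had a hepatocyte marker sum of 568 CPM. Marker sums are scaled by the plain library total, and levels of single genes are CPM scaled within a tissue by TMM (trimmed mean of M-values), and all changes are log2 fold changes with their standard error (SE), tested with edgeR against an adjusted p of 0.05.

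Fasting split the quadriceps members into 3 that rose, 2 that fell and 4 that did not pass. Averaged over both juvenile diets, Il6ra rose 12.02-fold, Stat5b 1.55-fold and Il6st 1.497-fold, while Cish was 11.2-fold and Socs3 2.77-fold lower in fasted muscle. Socs1 was too low for the filter and was not tested. Of all 12213 genes tested, 37.6% passed in this comparison, 19.2% as higher and 18.4% as lower, against 5 of 9 members. The median change was -0.05 over the 9 members and -0.02 over all genes tested. In bulk tissue, fewer cells of a type and less RNA per cell cannot be told apart.

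**Figure D1:**
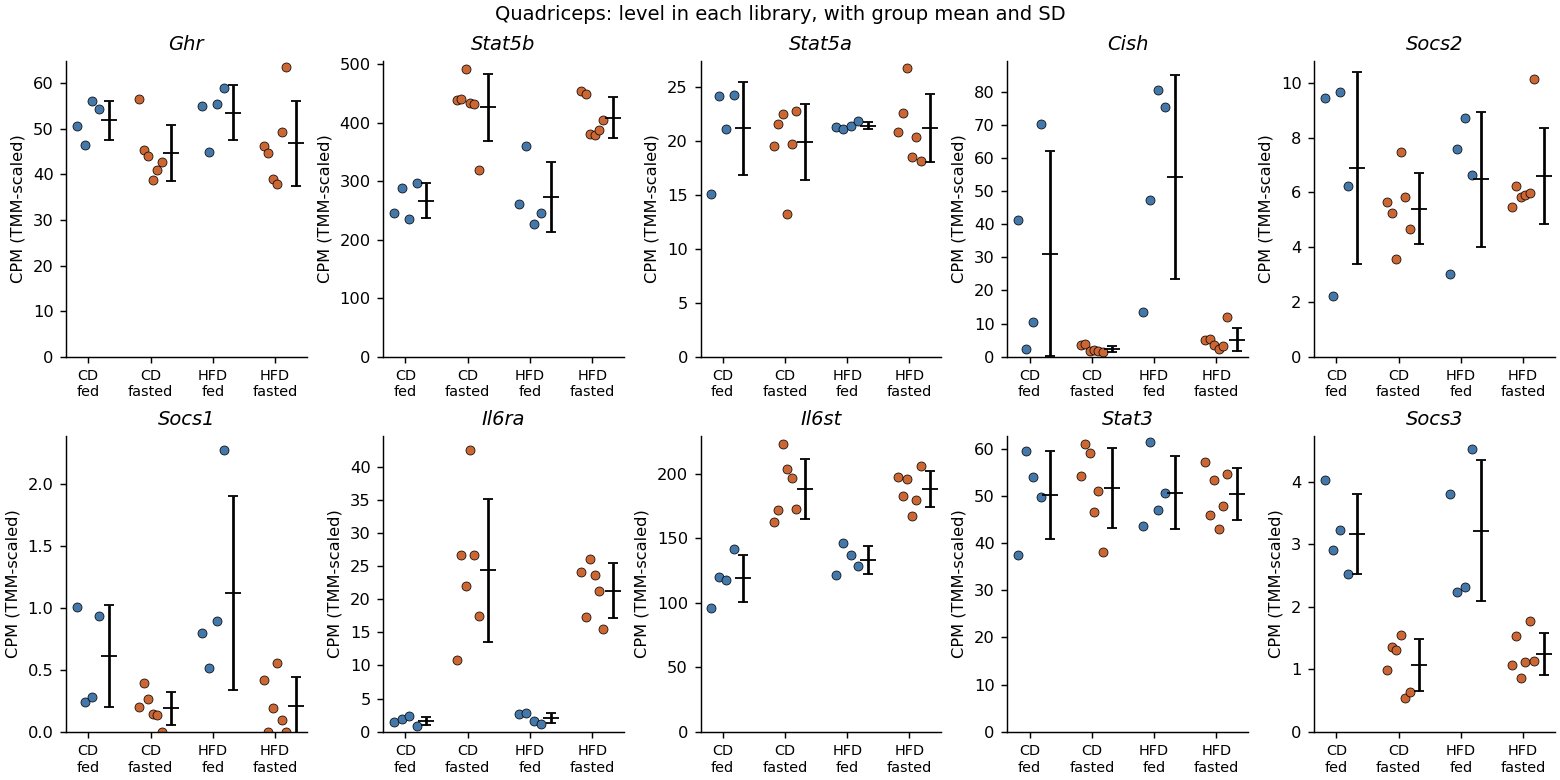
Levels of the 10 genes in each quadriceps library, as CPM scaled by TMM, by juvenile diet and feeding state (blue, fed; orange, fasted); each point is 1 library, and bars show the group mean with its SD. All 12 fasted libraries lie above all 8 fed libraries for Il6ra and Il6st and below them for Socs3, and the Cish points of fed muscle spread from 2.44 to 80.6 CPM.

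Among the growth hormone genes, the receptor itself did not pass the test. Ghr stood at 50.6, 46.4, 56.1 and 54.4 CPM in CD fed and at 55.0, 45.0, 55.5 and 58.9 CPM in HFD fed muscle. In CD fasted muscle it ran from 38.7 to 56.5 CPM with a median of 43.3, and in HFD fasted muscle from 37.9 to 63.6 CPM with a median of 45.5. Most fasted libraries lay low, 7 of 12 below every fed one, but the ranges overlapped. The change of -0.20 ± 0.09 did not pass (adjusted p = 0.0862; 95% interval -0.38 to -0.02). With limma voom and quality weights Ghr passed at -0.28 (adjusted p = 0.00731), and with edgeR it passed at -0.26 once HFD fasted replicate 6, the highest library, was left out (adjusted p = 0.0147). It also passed without CD fasted replicate 1 (-0.24, adjusted p = 0.0364) and without HFD fed replicate 2 (-0.24, adjusted p = 0.0487).

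Stat5b, the STAT5 gene with the higher level in this muscle, rose. Its level was 246, 288, 236 and 297 CPM in CD fed and 260.1, 361, 227 and 246 CPM in HFD fed muscle. In CD fasted muscle it ran from 319.8 to 491 CPM with a median of 436, and in HFD fasted muscle from 379 to 453 CPM with a median of 395. Fasted and fed libraries did not overlap within either diet, and 11 of 12 fasted libraries exceeded every fed one, the exception being CD fasted replicate 6. How many of all genes separate in these ways was not counted. The rise was 0.63 ± 0.09 (adjusted p = 3.77e-06). Stat5a, its close paralog, lay between 13.3 and 26.8 CPM in fasted and between 15.1 and 24.3 CPM in fed libraries. Its change of -0.05 ± 0.10 had an interval of -0.25 to 0.16 (adjusted p = 0.748). Counted per exonic base within each library, Stat5b exceeded Stat5a by a median of 15.5 times in the 8 fed libraries (13.6 to 22.0) and of 27.2 times in the 12 fasted ones (18.04 to 42.1). The difference between these ratios was not tested beyond the fits of each gene.

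Cish, which encodes the STAT5-induced inhibitor CIS, had the largest fall of the members. Its fed libraries spanned a wide range: 41.4, 2.44, 10.4 and 70.1 CPM in CD fed and 13.5, 47.1, 80.6 and 75.3 CPM in HFD fed libraries. In fasted muscle it ran from 1.47 to 3.69 CPM after CD, with a median of 1.94, and from 2.22 to 11.9 CPM after HFD, with a median of 4.25. The groups did not overlap after HFD, and how many of all genes separate within a diet was not counted. After CD they overlapped through CD fed replicate 2, which lay within the fasted range. The change was -3.48 ± 0.52 (adjusted p = 4.84e-05), and -3.68 without that library. Without CD fed replicate 3, which had the highest hepatocyte marker sum in quadriceps, it was -3.63.

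Of the other SOCS genes that growth hormone is known to induce, Socs2 did not pass. It lay between 2.21 and 9.67 CPM in fed and between 3.55 and 10.2 CPM in fasted muscle, with a change of -0.16 ± 0.22 and an interval of -0.59 to 0.28 (adjusted p = 0.616). Socs1, which encodes an inhibitor of JAK kinases best known downstream of interferons, was near the detection limit. It had 10, 3, 4 and 7 reads in CD fed and 9, 6, 10 and 26 reads in HFD fed libraries, and 0 to 5 reads in the 12 fasted ones, of which 3 had 0. Without the filter on low counts the Socs1 change was -2.04 with an adjusted p of 3.25e-04, and in the fit of all 39 libraries it was -2.10 with an adjusted p of 0.0234. Leaving out CD fed replicate 2 or 3 or HFD fed replicate 1, 2 or 3 let it pass the filter and the test, at -2.19 to -2.10. These values rest on a few reads per library.

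On the IL-6 side, Il6ra showed the largest rise of the members. The level was 1.41, 1.97, 2.31 and 0.797 CPM in CD fed and 2.66, 2.76, 1.60 and 1.22 CPM in HFD fed muscle. In CD fasted muscle it ran from 10.8 to 42.5 CPM with a median of 24.3, and in HFD fasted muscle from 15.5 to 26.1 CPM with a median of 22.4. Each of the 12 fasted libraries exceeded each of the 8 fed ones by a wide gap, from 2.76 to 10.8 CPM. The change was 3.59 ± 0.25 (adjusted p = 5.47e-10). In reads, this is a shift from 6 to 33 per fed library to 109 to 301 per fasted library.

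Il6st, the gp130 gene, was abundant in both states and rose less. It stood at 96.2, 120.0, 118 and 141 CPM in CD fed and at 121, 146, 137 and 128 CPM in HFD fed muscle. In fasted muscle it ran from 162 to 223 CPM after CD, with a median of 184, and from 167 to 206 CPM after HFD, with a median of 189. The fasted and fed libraries did not overlap, and the change was 0.58 ± 0.08 (adjusted p = 2.14e-06). Per exonic base within a library, Il6st exceeded Il6ra by a median of 50.3 times in fed muscle (35.5 to 138) and of 6.49 times in fasted muscle (3.73 to 11.7), with no overlap between the states. Stat3 stayed within 37.4 to 61.4 CPM in fed and 38.0 to 61.0 CPM in fasted libraries. Its change was 0.02 ± 0.10, with an interval of -0.17 to 0.21 (adjusted p = 0.914).

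Socs3, which encodes the inhibitor that binds gp130 and is a classical STAT3 target, fell. Its level was 4.03, 2.91, 3.22 and 2.52 CPM in CD fed and 3.81, 2.24, 2.31 and 4.53 CPM in HFD fed muscle. In fasted muscle it ran from 0.542 to 1.55 CPM after CD, with a median of 1.16, and from 0.863 to 1.77 CPM after HFD, with a median of 1.12. All 12 fasted libraries lay below all 8 fed ones, and the change was -1.47 ± 0.21 (adjusted p = 2.45e-06). These levels rest on 4 to 18 reads per fasted library and 19 to 52 per fed library. Il6ra and Il6st lay above, and Socs3 below, without any overlap between fasted and fed libraries. Among 12184 tested genes with a symbol, 6.85% had no overlap, 4.24% with fasted above fed and 2.6% with fasted below fed.

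The 5 calls of the average were made after either juvenile diet alone. Among all genes, 22.4% passed after CD and 21.4% after HFD (11.7% higher and 9.7% lower). Il6ra rose by 3.82 ± 0.36 after CD and 3.36 ± 0.35 after HFD, and Il6st by 0.66 ± 0.12 and 0.50 ± 0.12. Stat5b rose by 0.68 ± 0.13 and 0.58 ± 0.13. Cish changed by -3.66 ± 0.77 and -3.31 ± 0.69, and Socs3 by -1.58 ± 0.30 and -1.36 ± 0.29. With voom the Cish value after CD became -3.11, with an adjusted p of 0.0530. In a fit of all 39 libraries, which imposes the wider eWAT spread on muscle, Stat5b (0.57, adjusted p = 0.0621) and Il6st (0.52, adjusted p = 0.183) missed the threshold on average, while Cish, Socs3 and Il6ra passed.

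**Figure D2:**
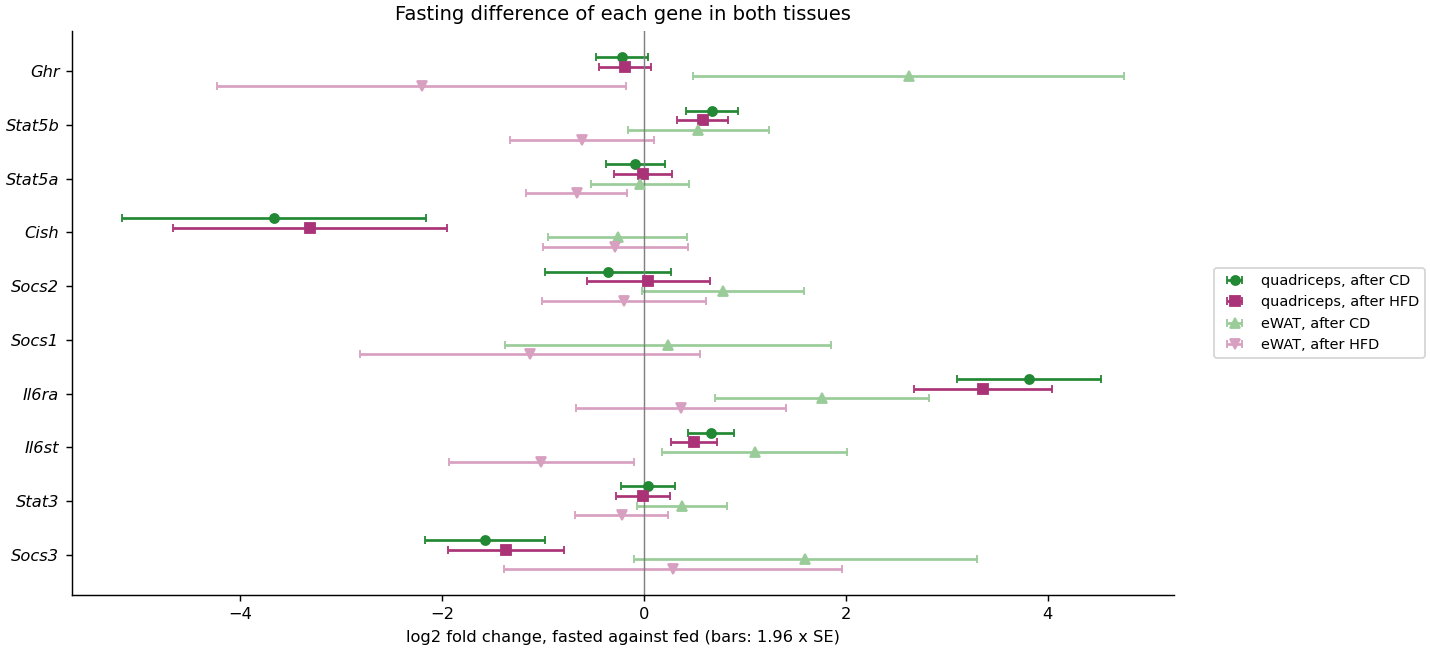
Log2 fold change between fasted and fed libraries for each gene, after juvenile CD and after juvenile HFD, in quadriceps and in libraries labelled eWAT; bars give the 95% interval, and Socs1 was not tested in quadriceps. The quadriceps estimates for both diets lie close together for each gene, from -3.66 for Cish to 3.82 for Il6ra, whereas the eWAT bars are wide and Ghr lies at 2.62 after CD and at -2.20 after HFD.

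Markers of other cell types were counted beside these changes. Adipocyte markers rose in fasted quadriceps for 3 of 8 genes, Lipe, Fabp4 and Cidec, and the sum ran from 147 to 1063 CPM (median 252) in fasted and from 123 to 304 CPM (median 144) in fed libraries. With an adipocyte covariate built from Adipoq, Cfd, Plin1 and Retn, the same 5 members passed. Their values were then 3.70 for Il6ra, -3.67 for Cish, -1.52 for Socs3, 0.63 for Stat5b and 0.62 for Il6st. The share of all genes called with the covariate is not given here, so these calls are not read as a result about the members. Macrophage markers passed for 0 of 8 genes, with sums of 25.2 to 109 CPM in fasted and 44.7 to 108 CPM in fed muscle. Endothelial markers fell for 1 of 6, the receptor gene Kdr, and satellite cell markers passed for 0 of 3 tested. Lymphocyte sums reached at most 1.63 CPM and neutrophil sums at most 1.08 CPM, and none of their genes passed the filter. Hepatocyte markers fell for 3 of 4 tested, Ahsg, Alb and Apoa1. Without CD fed replicate 3 the same 5 members passed, and Socs1, which then passed the filter, as well. When each quadriceps library was left out in turn, 4273 to 4564 of all genes passed. The part of any of these cells in the member changes was not tested beyond these values.

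Juvenile diet left no called difference in any member. Over both feeding states, 3 of 12213 genes (0.0246%; 0.00819% higher and 0.0164% lower) and 0 of 9 members passed. The smallest p belonged to Cish, at 1.01 ± 0.53 higher after juvenile HFD, with an interval of -0.03 to 2.04 (adjusted p = 0.617). The other 8 lay between -0.01 and 0.13. In fed muscle 1 gene (0.00819%) and in fasted muscle 0 genes (0.0%) passed with edgeR, with 0 members in each. In the fasted comparison 881 genes had an unadjusted p under 0.05, and DESeq2 called 2. The interaction of diet and fasting called 0 genes (0.0%) and 0 members with edgeR, with 300 genes at an unadjusted p under 0.05 and 2 called by DESeq2. Il6ra had an interaction of -0.46 ± 0.50, Il6st of -0.17 ± 0.16, Stat5b of -0.10 ± 0.18, Socs3 of 0.21 ± 0.43 and Cish of 0.36 ± 1.05. The Cish interval, from -1.69 to 2.41, was the widest among the members, and that of Il6st the narrowest, from -0.49 to 0.15.

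The surrounding pathway was described with 65 other genes in 10 lists, of which 48 were tested in quadriceps. Of these, 11 rose and 11 fell, with a median of -0.04. Over all genes in this comparison 37.6% passed, 19.2% as higher and 18.4% as lower. The list counts below, each of few genes, stand beside those shares. These lists too were chosen with earlier results of these data known, so the counts are no test of enrichment. None of the 4 JAK kinase genes passed. Jak2, the kinase of the growth hormone receptor, had the smallest p, at 0.32 ± 0.14 (adjusted p = 0.0738), followed by Tyk2 at -0.22 ± 0.12 and Jak3 at -0.13 ± 0.14. Of 3 other STAT genes tested 2 fell, among them Stat2, from 8.03 ± 2.14 CPM (SD, n = 8) in fed to 4.68 ± 0.75 CPM (n = 12) in fasted muscle, a change of -0.78 ± 0.14. Its product is best known as a carrier of interferon signals. Of 4 other SOCS box genes 1 fell, Socs7 at -0.30 ± 0.07, while Socs6 stood at -0.17 ± 0.10 and Socs5 at -0.14 ± 0.11.

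Of 9 ligand genes for gp130, 3 passed the filter and 0 passed the test. Ctf1, the cardiotrophin gene, stood at 0.29 ± 0.20 and Clcf1 at 0.13 ± 0.33. Il6 itself, not tested and named after its values were seen, stayed at or below 0.316 CPM in quadriceps. Of 4 other gp130 family receptors tested, Cntfr, the alpha receptor for ciliary neurotrophic factor, fell from 18.4 ± 4.62 CPM in fed to 9.20 ± 2.27 CPM in fasted libraries, a change of -0.996 ± 0.15, and Il11ra1 fell by 0.24 ± 0.10. Osmr, the oncostatin M receptor gene, stood at 0.18 ± 0.18. Of the 3 alpha receptor genes tested, Il6ra, Cntfr and Il11ra1, 1 rose and 2 fell. Of 5 other class I cytokine receptor genes, 0 were tested. Of 2 sheddase genes, Adam17, whose product releases the extracellular part of the IL-6 receptor, fell from 14.3 ± 3.01 to 9.01 ± 1.00 CPM, a change of -0.67 ± 0.11 (adjusted p = 2.16e-05), and Adam10 stood at 0.28 ± 0.14 (adjusted p = 0.121).

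Among 10 genes for STAT inhibitors and phosphatases, 3 rose and 1 fell. Pias1 rose by 0.51 ± 0.11 and Pias4 by 0.40 ± 0.09, both genes for STAT-binding SUMO ligases, and the phosphatase gene Ptpn1 by 0.29 ± 0.09. Of 7 tested genes known to respond to growth hormone and STAT5, 3 fell and 2 rose. Ccnd1, the cyclin D1 gene, fell from 8.09 ± 1.04 to 0.953 ± 0.356 CPM, a change of -3.08 ± 0.18 (adjusted p = 7.26e-14). Bcl6, a repressor gene known in liver to be lowered by growth hormone, fell by 1.30 ± 0.14, and Bcl2l1, a survival gene, rose by 0.51 ± 0.12. Igf1, named here after its values were seen, fell by 0.96 ± 0.26 (adjusted p = 0.00677).

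Of 11 tested genes known to respond to STAT3, 6 rose and 1 fell, beside 19.2% and 18.4% of all genes. Cebpd rose from 4.37 ± 1.26 CPM in fed to 58.2 ± 17.0 CPM in fasted muscle, a change of 3.75 ± 0.23 (adjusted p = 1.19e-10). Cebpb rose by 1.28 ± 0.17 and the AP-1 gene Junb by 1.34 ± 0.20, whereas Socs3, a gene of the same kind, fell. The C/EBP genes are known to respond to glucocorticoids and other signals as well. The median of the list was 0.38, against -0.02 for all genes.

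**Figure D3:**
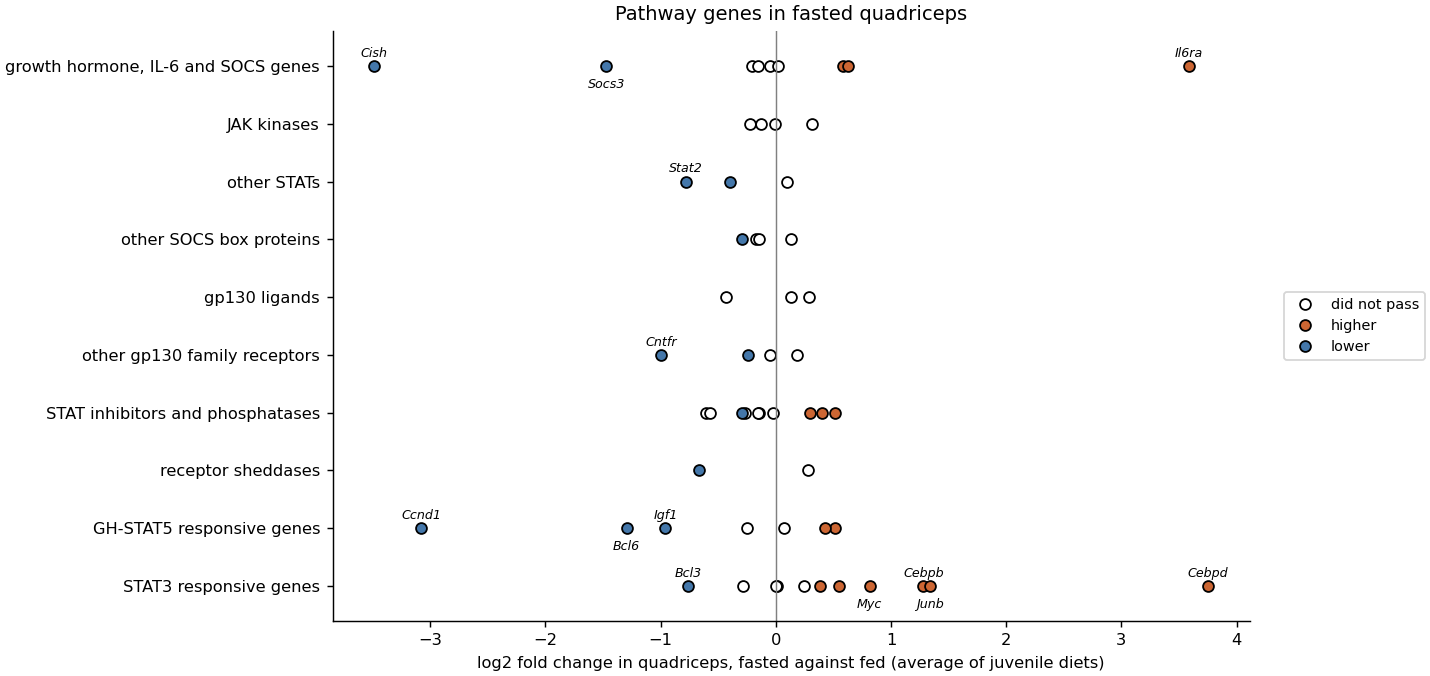
Log2 fold change in quadriceps, fasted against fed and averaged over juvenile diets, for each tested gene of the member set and of 9 pathway lists; filled points passed an adjusted p of 0.05 (orange, higher; blue, lower). Il6ra at 3.59 and Cebpd at 3.75 lie at the right end, and Cish at -3.48 and Ccnd1 at -3.08 at the left end, and genes beyond 0.7 are named, while the JAK kinases lie within 0.32 of 0.

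The genes whose pattern came closest to each called member were found over the 20 quadriceps libraries by the root mean square difference of log2(CPM + 0.5), each centred on its own mean. For Il6ra these were Trim63, a muscle ubiquitin ligase gene (0.475; fasting change 3.58), and Slc43a1, an amino acid transporter gene (0.5004; 3.01). For Cish they were Ky, a muscle peptidase gene, at a distance of 1.05, and Igfbp5, an insulin-like growth factor binding protein gene, at 1.15. The fed values of Cish themselves ran from 2.44 to 80.6 CPM. For Socs3 they were Steap3, a metalloreductase gene (0.300, fasting change -1.17), and Efemp2, an elastic fibre gene (0.321, fasting change -0.996). Socs3 itself changed by -1.47. At its low level the added 0.5 makes its differences on this scale smaller, which affects the match. For Stat5b they were Eif4g3, a translation factor gene (0.115), and Flcn, the folliculin gene (0.120), and for Il6st Sun1, a nuclear envelope gene (0.0990), and Myom1, an M-band gene (0.129). The choice was among 8490 tested protein-coding genes with a mean log2 CPM of at least 2 (8491 for Socs3).

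In the libraries labelled eWAT, no member passed for fasting or juvenile diet with edgeR. Averaged over diets, fasting called 0 of 16603 genes (0.0%; 1448 at an unadjusted p under 0.05 with edgeR, and 91 with DESeq2 after adjustment) and 0 of 10 members. The same count of 0 genes (0.0%) was given by fasting after CD (2572 unadjusted, 566 with DESeq2), fasting after HFD (3170 and 932), diet averaged over feeding (282 and 1), diet in fed (1705 and 59) and diet in fasted libraries (3487 and 1078), with 0 members in each. Over these contrasts Stat3 had the smallest adjusted p, at -0.67 ± 0.21 for diet in fasted libraries (adjusted p = 0.119). For fasting averaged over diets it was Il6ra, at 1.06 ± 0.38 (adjusted p = 0.550). After CD Il6ra lay at 16.3, 19.1, 18.9 and 19.6 CPM in fed libraries. In fasted ones it ran from 22.0 to 101 CPM (median 59.9), without overlap. How many of all genes separate in this way was not counted. The Il6ra change of 1.76 ± 0.54 had an adjusted p of 0.248 with edgeR and of 0.0353 with DESeq2. After HFD it lay at 24.3, 22.5, 38.5 and 14.8 CPM in fed and at 10.6, 17.8, 35.4, 81.1 and 16.8 CPM in fasted libraries, which overlap, with a change of 0.37 ± 0.53. The CD fasted values above 79 CPM and the HFD fasted value of 81.1 CPM all came from libraries poor in epididymal transcripts. Among these, CD fasted replicate 1 and HFD fasted replicate 4 had hepatocyte marker sums of 31193 and 133112 CPM. The part of liver transcripts in the Il6ra values was not tested.

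In eWAT, levels of some members differed between libraries with a high and with a low epididymal sum. Of the 13 libraries above 1000 CPM in that sum, CD gave 4 fed and 3 fasted and HFD 2 fed and 4 fasted ones, and of the 6 below it CD gave 3 fasted and HFD 2 fed and 1 fasted. These sets were defined from the data and are described without a test. Ghr averaged 57.5 ± 53.9 CPM (SD, 13 libraries; 12.6 to 221) in the first set and 547 ± 238 CPM (6 libraries; 326 to 961) in the second, with no overlap. Il6st averaged 94.5 ± 28.0 against 263 ± 58.4 CPM, Stat5b 45.5 ± 10.4 against 92.4 ± 11.6 CPM, Il6ra 22.7 ± 9.60 against 69.3 ± 31.5 CPM and Socs3 1.91 ± 0.68 against 9.31 ± 5.68 CPM. Stat5b, Il6st and Socs3 did not overlap between the sets either, whereas the other 6 members did. Of 16537 tested genes with a symbol, 16.9% did not overlap, 5.64% being higher in the second set, as these 4 members were, and 11.2% lower. In the second set, HFD fasted replicate 4 and CD fasted replicate 1 had hepatocyte marker sums of 133112 and 31193 CPM, against 25.1 to 3192 CPM in the other 4, and they held the highest Socs3 values, 17.0 and 15.7 CPM. The part of liver transcripts in these values was not tested. Cish was alike in both, at 21.8 ± 7.34 and 22.4 ± 10.9 CPM. Summed adipocyte markers ran from 1128 to 15172 CPM (median 2209) in the first set and from 1622 to 45312.5 CPM (median 37840) in the second, and the part of fat cells in these levels was not tested.

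**Figure D4:**
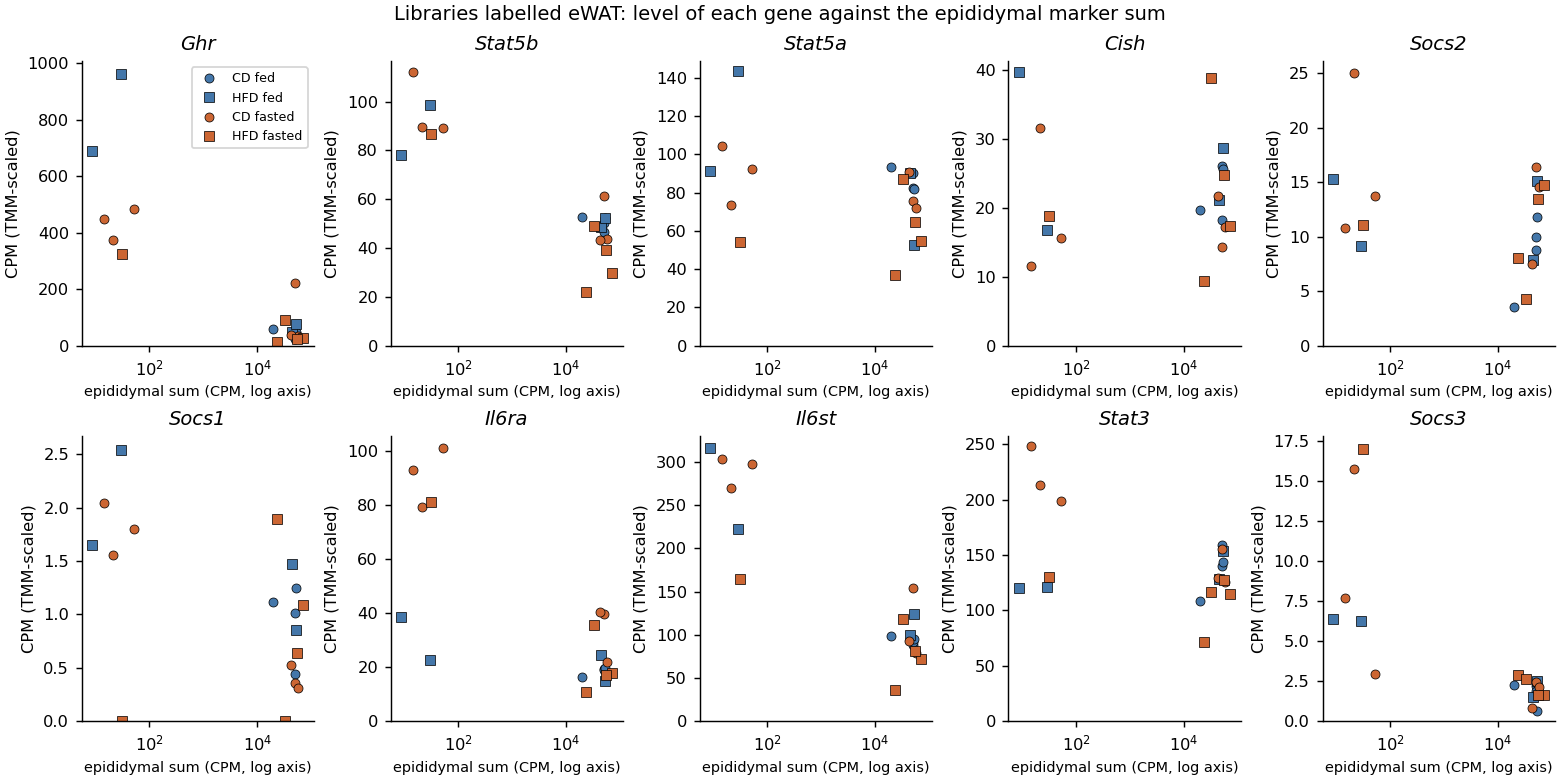
Level of each gene in the 19 libraries labelled eWAT, as CPM scaled by TMM, against the sum of 22 epididymal markers on a log axis; symbols give diet (circle, CD; square, HFD) and feeding (blue, fed; orange, fasted). Ghr lies at 326 to 961 CPM in the 6 libraries at the left and at 12.6 to 221 CPM in the 13 at the right, while Cish spans 9.46 to 39.8 CPM with no such split.

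The interaction of juvenile diet and fasting in eWAT called 1397 genes (8.41%; 2.6% higher and 5.82% lower) and 0 of 10 members. Ghr lay nearest the threshold. It stood at 59.5, 24.2, 40.3 and 49.5 CPM in CD fed, between 33.7 and 486 CPM (median 297) in CD fasted, at 47.9, 961, 690.1 and 76.4 CPM in HFD fed, and at 12.6, 29.0, 92.0, 326 and 22.3 CPM in HFD fasted libraries. All values above 300 CPM came from libraries poor in epididymal transcripts. Among these, CD fasted replicate 1 and HFD fasted replicate 4 had hepatocyte marker sums of 31193 and 133112 CPM. The interaction was -4.82 ± 1.501 for Ghr (adjusted p = 0.0544) and -2.11 ± 0.66 for Il6st (adjusted p = 0.0546). Both passed with DESeq2, at -4.68 (adjusted p = 0.00832) and -2.02 (adjusted p = 0.0241), beside 13.0% of all genes. Among the 13 epididymis-rich libraries alone they were -1.88 (adjusted p = 0.568) and -0.77 (adjusted p = 0.579). Markers of other cell types passed in the same interaction. Adipocyte markers were lower for 8 of 8 genes (median -6.45), endothelial markers for 4 of 6 (-4.25), macrophage markers for 4 of 8 (-2.81) and fast muscle fibre markers for 4 of 8 (-6.90), testis germ cell markers were higher for 2 of 6 (7.82), and epididymal and hepatocyte markers passed for 0 of 22 and 0 of 8. The adipocyte sum had medians of 1873 CPM (1592 to 3802) in CD fed, 24506 CPM (2290 to 45312.5) in CD fasted, 20299 CPM (2209 to 38088.5) in HFD fed and 1622 CPM (1128 to 7464) in HFD fasted libraries. The part of these cells in the member values was not tested. All 4 CD fed libraries were rich in epididymal transcripts, so within the poor libraries the interaction cannot be had.

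The 65 pathway genes gave no call for fasting in eWAT either, with 60 tested and a median of 0.14. Without HFD fasted replicate 4, 17.6% of all genes and 4 members passed in the interaction, namely Ghr (-6.20), Il6st (-2.48), Il6ra (-2.13) and Stat5b (-1.59). Leaving out CD fasted replicate 5, CD fasted replicate 6 or HFD fed replicate 1 let 2 members pass, Ghr and Il6st, beside 11.5%, 10.9% and 9.97% of all genes, and leaving out HFD fed replicate 4 let 1 pass, Ghr, beside 7.42%. Without any one of CD fasted replicates 1 to 3, CD fed replicates 1 to 4, HFD fasted replicate 1 or HFD fed replicates 2 and 3, the interaction called 0 genes with edgeR. Without CD fasted replicate 4 it called 781.

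Per exonic kilobase, on a scale shared by both tissues, the order of the members is given by state. Length counts every base annotated as exon in any transcript, 6419 for Cish within chr9:107296026-107302784 and 9531 for Socs2. A gene read mainly from shorter transcripts gets too low a level per kb. Orders and ratios between genes, here and per exonic base, therefore depend on this length. Which transcripts were present was not tested. In fed quadriceps the median levels were 71.8 CPM per kb for Stat5b, 17.4 for Il6st, 10.9 for Cish, 9.24 for Ghr and 4.75 for Stat5a, with Stat3 between Ghr and Stat5a. Socs3 (1.71), Socs2 (1.17), Socs1 (0.448) and Il6ra (0.321) followed. The fed range of Cish, 0.602 to 19.1 CPM per kb, overlapped those of all members but Stat5b and Il6ra. In fasted quadriceps Stat5b (114) and Il6st (25.9) again came first, then Stat3 (8.18), Ghr (7.38), Stat5a (4.38) and Il6ra (3.85), and last Socs2 (0.908), Cish (0.767), Socs3 (0.591) and Socs1 (0.0850). In the fasted order the ranges of Stat3 and Ghr overlapped, as did those of Stat5a and Il6ra and those from Socs2 to Socs3, and the other neighbours did not.

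In eWAT the order differed between the sets of libraries. In the 6 epididymis-poor ones Ghr came first, at a median of 33.4 CPM per kb (23.1 to 66.9), above Il6st (16.6), Stat3 (11.1), Stat5b (10.5), Stat5a (8.41), Il6ra (6.02) and Cish (1.77). In the 13 epididymis-rich ones Stat3 came first at 8.70 (4.47 to 10.8), followed by Stat5a (7.43), Stat5b (5.45), Il6st (5.41), Ghr (2.93), Cish (2.14) and Il6ra (1.44), with overlapping ranges. Socs3, Socs2 and Socs1 had medians of at most 1.59 in either set. Over all eWAT libraries, the median ratio of Stat5b to Stat5a per exonic base was 0.802 in fed libraries (0.666 to 1.29). In fasted libraries it was 0.782 (0.614 to 2.06), so either gene could be the higher one. By median, Stat5b lay above Stat5a in the epididymis-poor set and below it in the rich set.

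Between tissues, 83.0% of 17083 genes passed, 54.9% higher and 28.1% lower in eWAT, with a median of 0.64 (eWAT minus quadriceps), against 5 of 10 members. Stat5b was lower in eWAT by 3.78 ± 0.16 on the log2 scale, Il6st by 1.44 ± 0.17 and Socs2 by 0.43 ± 0.19, while Il6ra was higher by 1.00 ± 0.23 and Stat5a by 0.68 ± 0.10. The Socs2 call, with an adjusted p of 0.0394, was lost without the filter on low counts (adjusted p = 0.110). It was also lost without any one of eWAT CD fasted replicates 2 and 6, CD fed 1 and 2, HFD fasted 1 and 3 and HFD fed 1 and 2, or of quadriceps CD fed replicates 1 and 3, CD fasted 4, HFD fed 2, 3 and 4 and HFD fasted 6. Some tissue differences changed with the eWAT libraries used or with the epididymal class as a term. The rich and poor sets also differ in adipocyte sums (medians 2209 and 37840 CPM) and hepatocyte sums (170 and 1900 CPM). Epididymal content therefore cannot be told apart from these. With only epididymis-rich eWAT Ghr, at 0.34 ± 0.35, turned to -1.20 (adjusted p = 4.84e-05), and with the epididymal class as a term it became 1.88 (adjusted p = 6.52e-07). Under the same alternatives Il6st became -2.06 and -0.60, Il6ra 0.39 and 1.86, and Socs3, at -0.29 ± 0.32, became -1.39 and 1.02. Stat5b stayed lower, at -4.25 and -3.12.

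The response to fasting differed between tissues for 3 of 10 members, against 2.73% of all genes (0.942% with a positive and 1.79% with a negative difference). Since the members were chosen with earlier results of these data known, this is no test of enrichment. The difference (eWAT minus quadriceps) was 3.27 ± 0.57 for Cish (adjusted p = 5.69e-04), -2.50 ± 0.45 for Il6ra (adjusted p = 0.00109) and 2.46 ± 0.64 for Socs3 (adjusted p = 0.0276). Cish, which fell in fasted muscle, stood in eWAT at 19.8, 26.1, 18.3 and 25.6 CPM (CD fed), 11.6 to 31.7 CPM with a median of 16.5 (CD fasted), 21.2, 16.8, 39.8 and 28.7 CPM (HFD fed) and 9.46, 17.4, 38.9, 18.9 and 24.7 CPM (HFD fasted). These groups overlap, and the eWAT change was -0.27 ± 0.25 (adjusted p = 0.845). Socs3 had an eWAT change of 0.94 ± 0.60 (adjusted p = 0.714). With epididymis-rich eWAT alone the differences were 3.26 for Cish, -3.16 for Il6ra and 1.52 for Socs3. Stat5b (-0.92) and Il6st (-0.77) passed as well. The share of all genes called in that setting is not given here, so these added calls are not read as a result about the members. The Socs3 call was lost without the filter on low counts (adjusted p = 0.0545) and without eWAT HFD fasted replicate 4, where the value was 1.77 (adjusted p = 0.0569). Leaving out eWAT CD fed replicate 4, HFD fed replicate 1 or HFD fed replicate 4, or quadriceps CD fed replicate 1 or HFD fed replicate 4, gave adjusted p-values of 0.0509 to 0.0551.

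Some counts can be shared with neighbouring genes, since the strand setting of the counting is not given in the sources used here. Stat5a and Stat3 overlap by 72 bases on opposite strands. Cish overlaps Gm17041 and Gm17040, which reached at most 0.551 CPM in any library, and Il6ra overlaps Gm42809, which reached 5.28 CPM in eWAT and 0.406 CPM in quadriceps. Stat5a and Stat5b are near-identical copies over much of their coding sequence, and how reads that fit both were counted is not given in the sources used here, so the split between them is uncertain.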

How the data were processed

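Poly-A RNA from 39 libraries was sequenced on an Ion Torrent Proton, per the labels. The deposited files hold raw read counts per Ensembl gene, made by the authors. The submitters' processing notes name TopHat2 2.1.0, Bowtie2 2.2.5, HTSeq 0.6.0 and build GRCm38. The sources used here do not give their roles, the annotation release or the strand setting. The 5 summary lines per file were left out, and 18.4 to 39.9% of listed reads lay in genes (6199586 to 14993394 reads per library). Reads carry no molecular identifiers, so counting error is not the whole error.

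Genes were filtered with filterByExpr and scaled by TMM. Each tissue was fitted on its own with edgeR 4.0.16 (quasi-likelihood, robust, 1 mean per group, R 4.3.3), and both tissues together for tissue comparisons. Tests were two-sided, with Benjamini-Hochberg adjustment over all genes tested and a threshold of 0.05. Intervals are the estimate ± 1.96 SE. The quadriceps fit and the fit of both tissues were run on simulated counts with known changes, and the eWAT fit was not. For both tissues the simulated spread was smaller than that of the data. The simulation therefore cannot show how well the fits involving eWAT work. Replicates of a group differed from each other by more than sampling noise in all 79 pairs (chi-square per degree of freedom 6.49 to 638). Alternatives were other scaling, no filter, DESeq2 1.42.0, limma 3.58.1 voom, 1 fit of all libraries, no Gm42418 (a transcript that overlaps ribosomal RNA), an adipocyte covariate, subsets by an epididymal marker sum of 1000 CPM and each library left out.

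The members and lists were chosen with earlier results of these data known. All 10 members are named, with up to 3 genes of smallest p per pathway list (fewer where a result is not reported here), the 2 nearest genes per called member and any other marked as chosen after its values were seen. Genes for promoter windows matched RefSeq by symbol.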

Additional observations from a re-analysis of the deposited data

Results flagged for a closer look

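Of 80 values per gene and group, 7 had 1 library far from the others of its group by Dixon's criterion, and chance alone flags about 1 in 20 groups. In quadriceps these were Stat5a in CD fasted replicate 4 (13.3 CPM, low), Stat5b in CD fasted replicate 6 (319.8 CPM, low), and Cish and Socs2 in HFD fasted replicate 6 (11.9 and 10.2 CPM, both high). In eWAT they were Ghr and Socs3 in HFD fasted replicate 4 (326 and 17.0 CPM, both high) and Stat3 in HFD fasted replicate 1 (71.0 CPM, low). That library had a testis germ cell marker sum of 10542 CPM, against 161 to 399 CPM in the others of its group. HFD fasted replicate 4 was the 1 library of its eWAT group poor in epididymal transcripts, and its hepatocyte marker sum was 133112 CPM.

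The change on fasting differed between eWAT and quadriceps, by the test of the difference itself with edgeR, for Cish (3.27 on the log2 scale, eWAT minus quadriceps), Socs3 (2.46) and Il6ra (-2.50).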

How the results depend on the processing

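The labels carry no replicate numbers. No paired analysis was possible because no label ties a library of 1 group to a library of another.

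In quadriceps, 5 of 9 members passed for fasting on average, and 5 to 7 when each library was left out in turn, 5 after CD and 5 to 6 after HFD. In the fit of all 39 libraries 2 passed after CD and 2 after HFD. For eWAT, where 0 passed, fasting after CD gave 1 with DESeq2, 1 with voom and 3 with all 39 libraries. Fasting after HFD gave 3 with all 39 and 3 with epididymis-poor libraries only. Diet in fed libraries gave 1 with DESeq2 and 1 with all 39, and diet in fasted ones 1, 2 and, with poor libraries, 1. The interaction gave 2 with DESeq2 and 3 with all 39, beside 13.0% and 22.0% of all genes. It gave 0 to 4 when libraries were left out, beside 0 to 2893 of all genes. The difference between tissues in fasting rose from 3 to 5 members with rich libraries only and to 5 with the epididymal class as a term, and gave 2 to 3 when libraries were left out. The tissue difference gave 4 to 6. Except for the interaction, these member counts are given without the share of all genes called in the same setting. They are not read as a result about the members. Reversed values were those of Ghr between tissues, 0.34 to -1.20 with rich libraries only, and of Socs3, -0.29 to 1.02 with the class as a term. The cause was not tested.

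Of all member and count comparisons, 4615 kept their side of the threshold, 51 gained and 33 lost a call, 28 counts or values moved and 2 reversed. Over all genes, quadriceps fasting calls fell from 4588 to 1589 with all 39 libraries. The eWAT interaction gave 0 of its 1397 calls without the filter, with voom, with rich libraries only and with the class term, and 0 to 2893 when libraries were left out. Another scaling moved the median of that interaction from 0.19 to 0.30. Poor libraries alone allowed fasting after HFD and diet in fasted libraries, through 1 HFD fasted library, replicate 4, with 133112 CPM of hepatocyte markers, so the 3 and 1 calls above describe that library and not the group. Other contrasts could not be fitted. Depth limits Socs1, with 0 to 26 reads in quadriceps, and Socs3.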

Other observations

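Cish ran from 2.44 to 80.6 CPM among fed quadriceps libraries, and its level was set against the other 9 members within the 8 fed and within the 12 fasted libraries, on log2(CPM + 0.5), in 18 relations. With Socs1 in fed muscle Pearson's r was 0.74 (exact permutation p = 0.0175, adjusted p = 0.171) and Spearman's rho 0.71 (exact permutation p = 0.0576). With Ghr in fasted muscle r was 0.70 (permutation p = 0.0226) and rho 0.55 (p = 0.0678), and with Socs2 in fasted muscle r was 0.68 (permutation p = 0.0284) and rho 0.45 (p = 0.141). Without the 2 libraries farthest from the Cish median, r was 0.37, 0.41 and 0.22, while for Socs2 in fed muscle it went from 0.67 to 0.76. Leaving them out narrows the Cish range, so this step cannot show whether a relation rests on those libraries. None of the 18 passed after adjustment.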
